A study of Homo sapiens with 8 samples.

Results

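The mitochondrial ribosomal proteins were followed in RNA sequencing data from hTERT-RPE1, cells of the human retinal pigment epithelium made immortal by the catalytic subunit of telomerase. Members were all protein genes whose symbol starts with MRPL or MRPS and a number. Of 145 matching entries among 57884 listed genes, 66 were pseudogenes and 1 was the antisense RNA MRPL23-AS1, which lay between 0 and 0.504 FPKM and was set aside. Of the remaining 78 entries, 77 reached 1 FPKM (mapped fragments scaled by transcript length and library size, hence a level per length) in at least 2 libraries. They carry 76 symbols, because MRPS17 has a second entry (ENSG00000249773). That entry lay just inside the threshold, at 1 FPKM or more in only 3 libraries (1.96, 3.36 and 1.71). A second MRPL30 entry (ENSG00000273155) lay just outside, at 0.811 and 1.53 FPKM in the batch 1 libraries labelled ATF3(-/-) and 0 in the others. The 77 members were 49 proteins of the large subunit, 27 entries of the small subunit and MRPS36, now known as a subunit of the 2-oxoglutarate dehydrogenase complex and kept here by its symbol. MRPS30 and MRPS18A carry small-subunit names and sit in the large subunit.

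The study compared wild-type cells with cells labelled ATF3(-/-), each in complete medium and after 8 h in medium without serine and glycine. The labels place the complete-medium libraries at the start and give none at 8 h. Every difference between media is thus also one between the start and 8 h, and the effect of time was not tested. ATF3 is a transcription factor induced by stress. Each of the 4 groups has 2 libraries, 1 per batch, and the batches are independent experiments. All cells carry the telomerase transgene. Whether a genotype is 1 clone or a pool, and which ATF3 allele was made, is not stated in the labels.

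Mitochondrial ribosomes translate the few proteins encoded by mitochondrial DNA, all of them subunits of the respiratory chain and ATP synthase. Their rRNAs come from mitochondrial DNA, while every ribosomal protein is encoded in the nucleus, made in the cytosol and imported. Some of these proteins have counterparts in all ribosomes, some only in bacteria, and some are found only in mitochondria. Mitochondrial one-carbon metabolism draws on serine, and folate-dependent tRNA modification links it to mitochondrial translation.

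The genotype label was first set against ATF3 mRNA. In batch 1 wild-type cells had 3.47 FPKM of ATF3 in complete medium and 6.46 without serine and glycine, and cells labelled ATF3(-/-) had 3.38 and 4.45. In batch 2 wild type had 3.65 and 18 FPKM and the labelled cells 20.8 and 57.3, so the genotype is given throughout as labelled. FPKM sums per library ran from 2429662 to 3148153, and absolute depth is unknown. Of 8 retinal pigment epithelium markers 5 stayed below 1 FPKM in every library, among them RPE65, RLBP1 and TYR, and OTX2 was listed at 0 throughout. Only MITF reached 1 FPKM in every library, from 1.96 to 6.55. Of 6 markers of other epithelia, CDH1, EPCAM and ESRP1 reached 56.2, 98.5 and 56.5 FPKM in the labelled serine/glycine-free library of batch 2, and their list summed to 302 and 389 FPKM in the 2 labelled libraries of that batch, 147 and 68.3 in its wild-type libraries and 13.1 to 25 in batch 1. CLDN4 made up most of the wild-type sums of batch 2, at 135 and 55.5 FPKM, while KRT5 and KRT14 were at 0 throughout that batch. The 5 markers of mesenchymal-like cultured epithelium (VIM, FN1, CDH2, KRT8 and KRT18) summed to 493 and 436 FPKM in those 2 labelled libraries, 773 and 815 in wild type of batch 2 and 1210 to 1540 in batch 1. Within that list VIM and CDH2 were lower with the label in both media of batch 2, KRT8 and KRT18 were higher, and FN1 was at 38.3 and 56.7 FPKM against 44.5 and 58.7. The 4 fibroblast markers, mainly COL3A1 and COL1A1, summed to 104 and 83.4 FPKM in the labelled libraries of batch 1, 35.3 and 30.9 in its wild-type libraries and 1.72 to 2.74 in batch 2, and the 3 immune markers stayed below 1 FPKM throughout. PDGFRB of the fibroblast list stood at 7.81 and 5.83 FPKM in wild type of batch 1 and 7.24 and 7.23 with the label. In such bulk samples fewer cells of a type and less RNA per cell cannot be told apart.

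The genome sequence at the start sites of the members is given first, since one short word recurs there. RefSeq promoters of GRCh38.p14, each from 250 bases before to 50 after the annotated start, matched 67 of the 76 symbols. No entry was matched for MRPL2, MRPL10, MRPL13, MRPL15, MRPL21, MRPL23, MRPL35, MRPS28 and MRPS36. The word AAGATGGCG, a core of sites for the zinc finger protein YY1, was found on either strand in 13 of the 67 (19.4%) and in 505 of all 27305 promoters of this length (1.85%). MRPL52 holds it in 2 places, and of these 14 matches 10 begin after the annotated start and 12 read along the gene strand. The word also holds the letters ATG, and whether these are the start codon of the protein was not checked. The set of all promoters was not limited to protein genes, so its share is not that of like genes. The share was 12.9% for nuclear genes of the respiratory chain and 7.94% for cytosolic ribosomal proteins, and it was 28.6% (2 of 7) for mitochondrial ribosomal proteins with other symbols and 14.3% (2 of 14) for mitochondrial aminoacyl-tRNA synthetases. Windows of up to 30 bases around the match are shown for the members with the highest and the lowest difference between media among the 13, and for 4 others that are described with the values. Capitals mark the match.
MRPS30: atcgcgggcaAAGATGGCGgcggccaggt
MRPS10: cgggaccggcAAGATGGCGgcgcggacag
MRPS18A: taggtttttgAAGATGGCGgccctcaagg
MRPL46: gggagaacgaAAGATGGCGgcgcccgtaa
MRPS24: cgcttggcccAAGATGGCGgcctccgtgt
MRPL22: gggagggcgaAAGATGGCGgcggca
The MRPS30 window lies at chr5:44808950-44808978 on the plus strand, the MRPS10 window at chr6:42217834-42217862 on the minus strand and the MRPS18A window at chr6:43687764-43687792 on the minus strand. The MRPL46 window lies at chr15:88467362-88467390 on the minus strand, the MRPS24 window at chr7:43869480-43869508 on the minus strand and the MRPL22 window at chr5:154941098-154941122 on the plus strand. In these 6 the match starts between bases 9 and 36 after the annotated start.

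Other words were searched on both strands in the same promoters. The ETS word CCGGAAGT was in 11 of the 67 members (16.4%) and in 4.44% of all promoters. Related lists held it about as often or more, from 14.3% for cytosolic ribosomal proteins and 14.5% for the nuclear respiratory chain to 21.4% for aminoacyl-tRNA synthetases, 24% for assembly, 25% for translation factors and 44.4% (4 of 9) for mitochondrial DNA transcription and replication. The nuclear respiratory factor 1 word GCGCATGCG was in 3 members (4.48%) and 2.1% of all promoters. Over the related lists it ran from 0% (0 of 7) for mitochondrial ribosomal proteins with other symbols to 22.2% (2 of 9) for mitochondrial DNA transcription and replication. The YY1 and nuclear respiratory factor 1 words were shortened by their last letter after longer forms had been counted. With G added, the YY1 word was in 13 members and 1.28% of all promoters, and with C added, the nuclear respiratory factor 1 word was in 1 member (1.49%) and 1.36%. The E-box CACGTG stood at 8.96% and 7.43%, and CCAAT at 29.9% and 35.7%. TATAAA was in 2.99% of members and 12% of all promoters. Of words for ATF and AP-1 factors, TGACGTCA was in 0 members and 1.98% of all promoters, TGANTCA in 1.49% and 7.76%, and TGATGNAA in 1.49% and 3.67%. Over the related lists these words ran from 0% to 11.1% (1 of 9), from 0% to 22.2% (2 of 9) and from 0% to 7.14% (1 of 14). In the 17 matched promoters of ATF4 response genes they stood at 0%, 17.6% and 17.6%. A match describes the letters only, and these words can overlap each other.

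Some members stood head to head with another gene. A start on the opposite strand pointing away lay within 1000 bases for 21 of the 67 (31.3%), against 16.6% of all promoters. That set was again not limited to protein genes, and the share was not computed for the related lists. For MRPS12, a small-subunit protein of the decoding centre, the neighbour is SARS2, the mitochondrial seryl-tRNA synthetase. The 180 bases between these 2 starts, at chr19:38930764-38930943 on the plus strand of GRCh38.p14, are shown because both genes serve mitochondrial translation and their values between media differed. Capitals mark the 4 CCAAT words found.
MRPS12 to SARS2: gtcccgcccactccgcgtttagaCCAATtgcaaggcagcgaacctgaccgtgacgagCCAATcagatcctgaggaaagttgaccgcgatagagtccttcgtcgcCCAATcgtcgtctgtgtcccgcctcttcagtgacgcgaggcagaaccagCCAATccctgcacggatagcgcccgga

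Mitochondrial ribosomal protein mRNAs were abundant, and 70 of the 77 members stood at 10 FPKM or more in every library. Their median was 37.8 FPKM in wild-type complete medium of batch 1 and 38.5 without serine and glycine, and 38.5 and 42.4 with the ATF3(-/-) label. In batch 2 the medians were 42.1 and 44.6 in wild type and 40.9 and 42.9 with the label. Each of the 4 within-batch pairs thus had the higher median in serine/glycine-free medium, as did the genes at a median of 10 FPKM or more (25.5 and 26.1, then 24.4 and 24.8 in batch 1, and 23.1 and 24.7, then 22.3 and 23.2 in batch 2). The tables of the 2 batches were normalized separately, which bears on every level set across them.

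**Figure D1:**
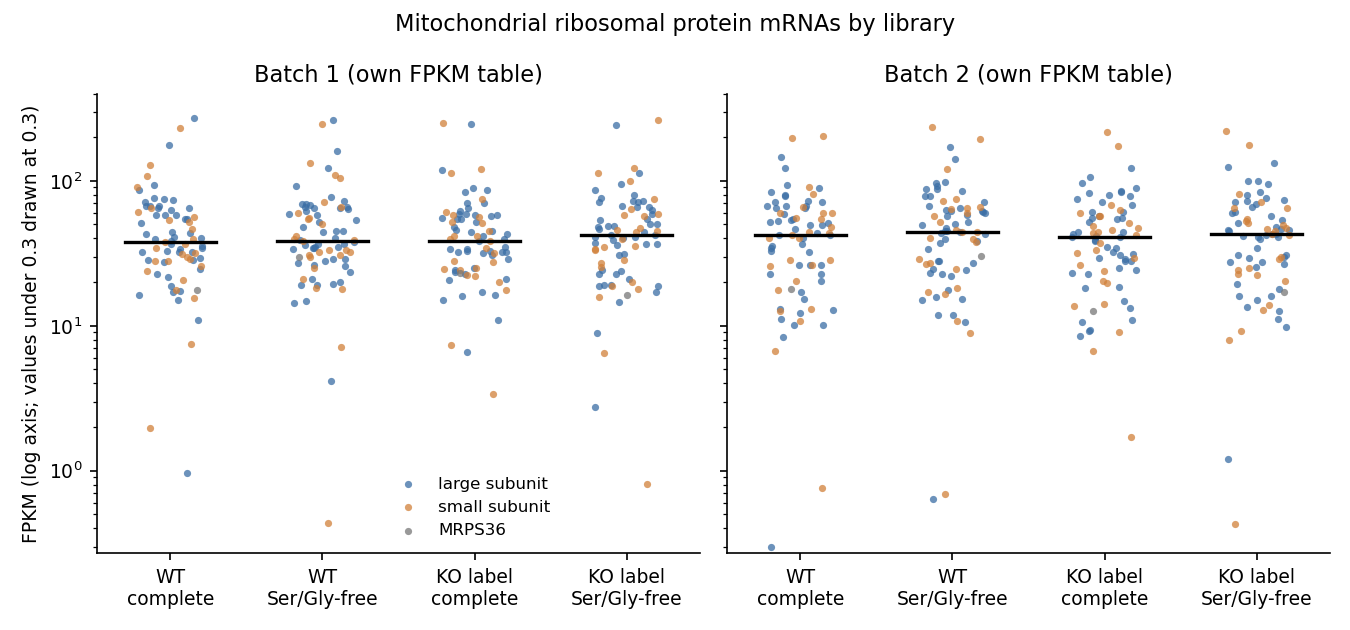
FPKM (log axis) of the 77 members in each of the 8 libraries, batch 1 left and batch 2 right; points are members coloured by subunit and bars are medians. The medians lie between 37.8 and 44.6 FPKM in all libraries, and a few points far below belong to MRPL30 and the second MRPS17 entry.

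The members with the highest mean log2 level were MRPS24, MRPS16 and MRPL51. MRPS24, which helps form the mRNA entry of the small subunit, stood between 231 and 261 FPKM in batch 1 and between 193 and 219 in batch 2. MRPS16, a bacterial-type small-subunit protein, stood at 120 to 133 and 174 to 235 FPKM. MRPL51, a protein found only in mitochondrial ribosomes, stood at 243 to 272 FPKM in batch 1 and 83.7 to 96.5 in batch 2. MRPL51 also differed most between the tables, by a log2 of -1.53. Between batches, 5 members were at least 2-fold lower in batch 2 (MRPL51, MRPL40, MRPL15, MRPL28 and MRPS9) and 4 at least 2-fold higher (MRPL20, MRPL55, MRPL34 and MRPL4), on the mean of log2(FPKM + 1).

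At the low end were the second MRPS17 entry, MRPL30 and MRPS31. MRPS31, a small-subunit protein found only in mitochondria, stood between 6.44 and 8.85 FPKM in all 8 libraries. MRPL30 stood between 0.00928 and 9.13 FPKM and the second MRPS17 entry between 0.426 and 3.36. The listed locus of MRPL30 holds 14 genes and that of both MRPS17 entries holds 5, and 47 of the 77 members share their listed locus with another gene. No label says that strand was used in counting, so reads of overlapping genes may have been split.

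Within a table each member's highest library was divided by its lowest. The median ratio over the members was 1.32 for the first table, that of batch 1, and 1.31 for that of batch 2. No such value is given for all genes, so the members are not set against other genes here. The ratio was under 1.5 in both tables for 45 members and over 2 in either table for 9. The residual spread was smallest for MRPS5, MRPS24 and MRPL51 and largest for MRPL30, MRPS6 and MRPL49. MRPS5, a protein of the mRNA channel, stood at 37.8, 39.3, 39.6 and 39.5 FPKM in batch 1 and 28.2, 29.1, 29.5 and 29.7 in batch 2, in the order wild type complete, wild type serine/glycine-free, labelled complete and labelled serine/glycine-free. The order of the members by level was alike in libraries of 1 table (Pearson r of log2 levels 0.92 to 0.98 over 77 members) and less so across tables (0.78 to 0.85). These libraries share the gene set and its lengths, and those of a table also share its normalization.

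The first comparison asks how the mRNAs stood after 8 h without serine and glycine. Over both genotype labels the median difference of the members was 0.07 on the log2(FPKM + 1) scale, against 0.02 for all 17994 genes tested and 0.04 for the 6930 genes at a median of 10 FPKM or more. It was 0.05 in batch 1 and 0.10 in batch 2. Columns were not rescaled, and median-ratio scaling gave 0.02 for the members and -0.02 for all genes tested. Differences on this scale understate those of low genes. In the fit (limma, batch as a block, two-sided, Benjamini-Hochberg adjustment over the 17994 genes) 0 members passed an adjusted p of 0.05, against 0.133% of all genes tested. At an unadjusted p under 0.05 there were 10 members, 7 higher and 3 lower, where 10% of all genes tested reached that level.

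By direction alone, in all 4 within-batch pairs 25 of the 77 members were higher (32.5%), against 14.6% of all genes tested and 22.9% of the genes at a median of 10 FPKM or more. Lower in all 4 were 7 members (9.09%), against 11.4% and 13.2%. These counts were not repeated on scaled values. The fitted difference lay within 0.5 either way for 74 members, and its 95% interval lay within 0.5 for 49 and within 1 for 73. The p-values rest on 2 independent experiments.

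**Figure D2:**
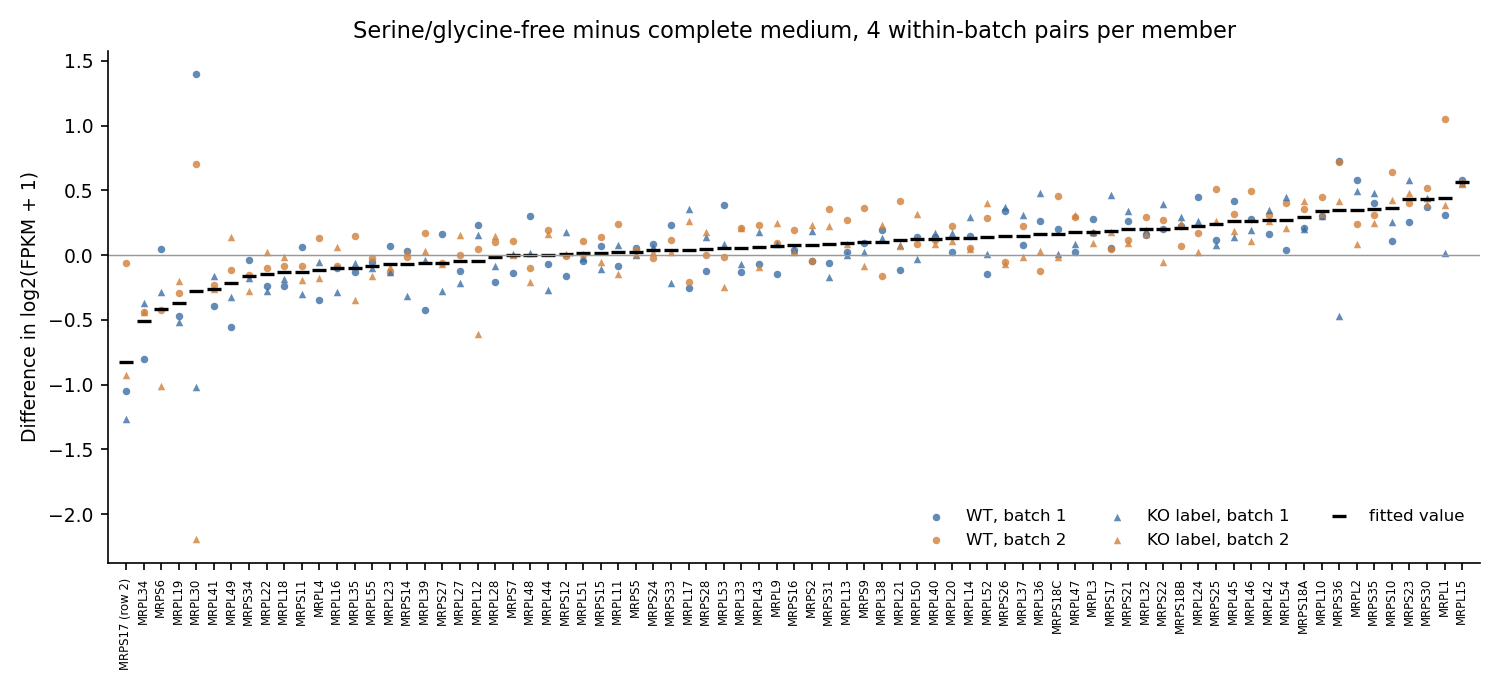
Difference in log2(FPKM + 1) between serine/glycine-free and complete medium for each of the 77 members, ordered by the fitted value (bar), with 1 point for each of the 4 within-batch pairs. Of the members, 25 lie above 0 in all 4 pairs and 7 lie below 0 in all 4.

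Proteins found only in mitochondrial ribosomes had a median difference between media of 0.13, and 24 of 29 were higher. Proteins with a bacterial counterpart had 0.05, with 11 of 19 higher, and those shared by all ribosomes had 0.03, with 18 of 28 higher. Of all genes tested 9445 of 17994 were higher, and of those at a median of 10 FPKM or more 4018 of 6930. The large subunit (33 of 49 higher) and the small subunit (20 of 27) both had a median of 0.07. The 3 protein classes overlapped widely, with quartiles of 0.01 to 0.26 for the mitochondria-specific proteins and -0.08 to 0.18 for those of all ribosomes. The 13 members with the YY1 word had a median of 0.20, ranged from -0.15 to 0.43, and 12 of them were higher. The 54 matched members without it had a median of 0.04. That grouping was made after the values were seen and has no test.

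The 5 highest members on the same side of the member median in all 4 pairs are named, 3 of them with every library. MRPL1, the large-subunit protein of the L1 stalk, missed that condition with a pair at 0.01, though at 0.44 ± 0.18 it was second to MRPL15 (limma adjusted p = 0.507). MRPL15, a core protein of the large subunit, stood at 32.1 and 48.4 FPKM (complete, then serine/glycine-free) in wild type of batch 1, 34 and 50.5 with the label, 10.1 and 15.4 in wild type of batch 2 and 18.5 and 27.5 with the label. The 4 pairs were nearly alike, with log2 differences of 0.55 to 0.58, and within a batch the serine/glycine-free values did not overlap the complete-medium values in batch 1 but did in batch 2. The fitted difference was 0.56 ± 0.18 (SE, 4 libraries per medium; limma adjusted p = 0.406). That SE is not the spread of the 4 pairs. It also holds the change of the label difference between batches, from 0.07 in batch 1 to 0.80 in batch 2. With a block per genotype label and batch the limma adjusted p was 0.129.

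MRPS30, a large-subunit protein found only in mitochondria, stood at 34 and 44.4 FPKM in wild type of batch 1, 34.9 and 47.8 with the label, 46.5 and 67.2 in wild type of batch 2 and 54.9 and 72.4 with the label. Both serine/glycine-free values lay above both complete-medium values in each batch. The difference was 0.43 ± 0.10 (limma adjusted p = 0.292), and it was of like size in wild type (0.45) and with the label (0.42).

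MRPS23, a small-subunit protein found only in mitochondria, stood at 91.3 and 109 FPKM in wild type of batch 1, 75 and 113 with the label, 90.7 and 120 in wild type of batch 2 and 57.5 and 80.7 with the label. Every pair was higher without serine and glycine, by 0.26 to 0.58, but in batch 2 the labelled serine/glycine-free library lay below the wild-type complete one. The fitted difference was 0.43 ± 0.14 (limma adjusted p = 0.399). MRPS10, a protein of the small-subunit head, had 0.36 ± 0.13, with 0.19 in batch 1 and 0.54 in batch 2 (limma adjusted p = 0.446). MRPS35, also of the small subunit and found only in mitochondria, had 0.36 ± 0.11, with pairs of 0.25 to 0.48 (limma adjusted p = 0.366). Outside the rule, MRPS18A (0.30 ± 0.12) and MRPL42 (0.27 ± 0.10) also reached an unadjusted p under 0.05, and both have the YY1 word. Among the highest members by the rule, MRPS30 and MRPS10 have it, MRPS23 and MRPS35 do not, and MRPL15 had no promoter matched.

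The 5 lowest members by the same rule follow. MRPL34, a small basic protein of the large subunit with a bacterial counterpart, stood at 34.6 and 19.5 FPKM in wild type of batch 1, 25 and 19.1 with the label, 64.7 and 47.5 in wild type of batch 2 and 61.4 and 45.0 with the label. Both serine/glycine-free values lay below both complete-medium values in each batch, the reverse of MRPS30. The difference was -0.51 ± 0.12, the smallest adjusted p of any member in this comparison (limma adjusted p = 0.288).

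MRPL19, another large-subunit protein with a bacterial counterpart, stood at 54.6 and 39.1 FPKM in wild type of batch 1, 51.8 and 35.9 with the label, 34.3 and 27.8 in wild type of batch 2 and 32.0 and 27.7 with the label. Its groups did not overlap within a batch either. The difference was -0.37 ± 0.11 (limma adjusted p = 0.373). MRPL41, found only in mitochondria, had -0.26 ± 0.13, lower in 4 of 4 pairs (limma adjusted p = 0.566), and -0.17 when the batch 1 library of wild type in complete medium was left out. MRPS6 had -0.42 ± 0.25, a value that ran from -0.12 in batch 1 to -0.72 in batch 2 (limma adjusted p = 0.638). It became -0.18 or -0.14 without the wild-type complete or the labelled serine/glycine-free library of batch 2, and -0.66 or -0.70 without those of batch 1.

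The second MRPS17 entry had the lowest difference of all, -0.83 ± 0.24 (limma adjusted p = 0.362), at very low levels. It stood at 1.96 and 0.434 FPKM in wild type of batch 1, 3.36 and 0.812 with the label, 0.764 and 0.690 in wild type of batch 2 and 1.71 and 0.426 with the label. With a pseudocount of 0.1 the difference became -1.45. The main MRPS17 entry, at the same listed locus on hg19 chromosome 7 (55954970 to 56067874), stood between 19.6 and 33.7 FPKM. Reads at this locus may have been split between the entries.

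**Figure D3:**
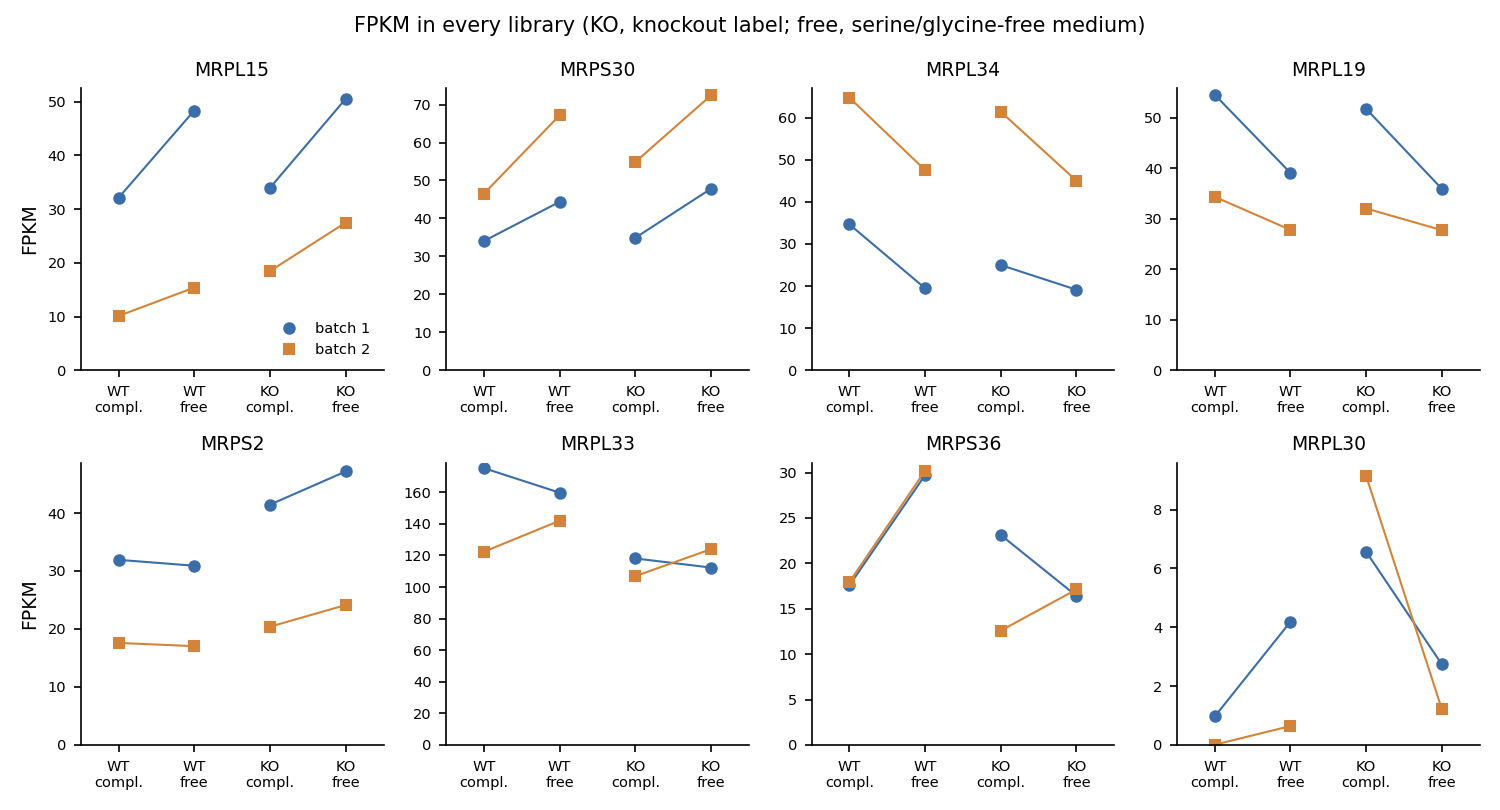
FPKM in every library for 8 members that stand apart, with circles for batch 1, squares for batch 2 and lines joining the 2 media of a genotype label within a batch. MRPL15 and MRPS30 were higher and MRPL34 and MRPL19 lower without serine and glycine in all 4 pairs, while the lines of MRPL30 run in opposite directions in the 2 genotype labels.

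The same comparison was made within each genotype label. In wild type the median difference was 0.10 (0.06 in batch 1 and 0.12 in batch 2), against 0.02 for all genes tested and 0.04 for those at a median of 10 FPKM or more. In both batches 37 members (48.1%) were higher and 14 (18.2%) lower, against 29.9% and 24.6% of all genes tested and 37.8% and 26.2% of the abundant ones. With the ATF3(-/-) label the median was 0.04 (0.06 in each batch), against 0.01 for all genes tested and 0.05 for the abundant ones, so the members' median was not above that of the abundant genes. With 36 members (46.8%) higher and 15 (19.5%) lower in both batches, the shares were 27.1% and 25.1% of all genes tested and 36% and 24.5% of the abundant ones. Scaled by the median ratio over abundant genes the labelled median became -0.012 and the wild-type median 0.046, with all genes tested at -0.03 and -0.02, while the median of all genes moved by at most 0.0575 under either scaling in any comparison.

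In neither genotype label did a member pass the threshold (0 of 77 each by limma, against 0.0556% of all genes tested in wild type and 0.0167% with the label). At an unadjusted p under 0.05 there were 4 in wild type, where 5.64% of all genes tested reached it, namely MRPL34, MRPS30, MRPS36 and MRPL1. There were also 4 with the label, against 5.59%, namely MRPL30, the second MRPS17 entry, MRPS30 and MRPS23. MRPL1 was outside the rule for named genes, and its wild-type difference was 0.68 ± 0.26, made up of 0.31 in batch 1 and 1.05 in batch 2 (limma adjusted p = 0.872). Over the 77 members the wild-type differences of the 2 batches correlated at r = 0.54 and those with the label at r = 0.62. These pairs of differences come from separate tables and share the genes and their lengths. With the label they include the low entries MRPL30 (-1.02 and -2.20) and second MRPS17 (-1.27 and -0.93), and r without these was not computed. Within a batch the wild-type and labelled differences correlated less, at r = 0.32 in batch 1 and 0.26 in batch 2. MRPL30 had opposite signs there, with 1.40 in wild type and -1.02 with the label in batch 1. In batch 2 it had 0.70 and -2.20. No r within a batch was computed without MRPL30, so the lower values may rest on it.

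The difference between the 2 responses had a median of -0.03 (labelled minus wild type), against -0.02 for all genes tested. By limma 0 members passed (0.0611% of all genes tested did), and 1, MRPL30, had an unadjusted p under 0.05, against 1.53%. In 6 of 77 members (7.79%) the medium response had opposite signs in the 2 labels in both batches, against 6.31% of all genes tested. These were MRPL17, MRPL30, MRPS2, MRPS12, MRPS15 and MRPS28, of which the last 3 are outside the rule for named genes. Some of these signs rest on values near 0, such as -3.2e-05 for MRPS28 in wild type of batch 2.

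MRPL30, a large-subunit protein, had the largest such difference and low values throughout. It stood at 0.969 and 4.19 FPKM in wild type of batch 1, 6.57 and 2.74 with the label, 0.00928 and 0.643 in wild type of batch 2 and 9.13 and 1.21 with the label. Wild type was higher and the labelled cells lower without serine and glycine in both batches, a difference of -2.66 ± 0.70 (limma unadjusted p = 0.00894, adjusted p = 1), or -4.41 with a pseudocount of 0.1. In complete medium it was higher with the label by 2.64 ± 0.49 (limma adjusted p = 0.857), or 4.52 with that pseudocount. Its response with the label alone, -1.61 ± 0.49 (limma adjusted p = 0.892), became -0.83 without the labelled complete library of batch 2. Its listed locus on hg19 chromosome 2 (99613724 to 100106497) holds 14 genes, and MITD1, which starts head to head with it 126 bases away, stood between 19.2 and 25.6 FPKM with a medium difference of 0.0020 ± 0.12.

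MRPS36 was alike in the 2 batches of wild type and not with the label. It stood at 17.6 and 29.7 FPKM in wild type of batch 1 and at 17.9 and 30.2 in wild type of batch 2, a difference of 0.72 ± 0.26 with both pairs at 0.72 to 0.73 (limma adjusted p = 0.852). With the label it stood at 23.1 and 16.4 FPKM in batch 1 and at 12.6 and 17.1 in batch 2, so that the 2 batches had opposite signs. The difference between the responses was -0.75 ± 0.37 and became -0.32 without the labelled complete library of batch 1 and -1.18 without that of batch 2. In serine/glycine-free medium MRPS36 was lower with the label by -0.82 in batch 1 and -0.78 in batch 2, a fitted -0.80 ± 0.26 (limma adjusted p = 0.801).

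MRPL17, a large-subunit protein with a bacterial counterpart near the exit tunnel, stood at 40.7 and 34.1 FPKM in wild type of batch 1, 31.7 and 40.9 with the label, 49.4 and 42.7 in wild type of batch 2 and 28.7 and 34.6 with the label. Wild type was lower and the labelled cells higher without serine and glycine in both batches. The difference between the responses was 0.54 ± 0.28 (limma adjusted p = 1) and became 0.34 without the labelled serine/glycine-free library of batch 1. In complete medium the MRPL17 difference for the label was -0.56 ± 0.20 (limma adjusted p = 0.857), with -0.35 in batch 1 and -0.76 in batch 2.

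The next comparison sets the ATF3(-/-) label against wild type. Over both media the members had a median difference of -0.07, against -0.03 for all genes tested and -0.07 for the genes at a median of 10 FPKM or more, and median-ratio scaling gave 0.0042 for the members and 0.03 for all genes tested. It was -0.03 in batch 1 and -0.07 in batch 2, and markers of other cell types differed with the label in both batches, the fibroblast list in batch 1 and the lists of other epithelia and of mesenchymal-like cells in batch 2. Without the 2 labelled libraries of batch 2 the median was -0.029, and the part of any of these markers in it was not tested. By limma 0 members passed (0.0445% of all genes tested did). At an unadjusted p under 0.05 there were 7 members, where 10.9% of all genes tested reached it.

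In all 4 within-batch pairs 13 members were higher with the label (16.9%), against 8.34% of all genes tested and 8.7% of those at a median of 10 FPKM or more. Lower in all 4 were 12 (15.6%), against 13.2% and 20.4%. Yet 18 of 77 members (23.4%) had opposite signs in the 2 batches in both media, against 19.5% of all genes tested. Over the members the batch 1 and batch 2 differences correlated at r = 0.23, and at r = -0.012 over the 74 left without MRPL30, MRPS36 and the second MRPS17 entry. The same correlation for the difference between media was 0.50 over 77 and 0.51 over those 74.

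**Figure D4:**
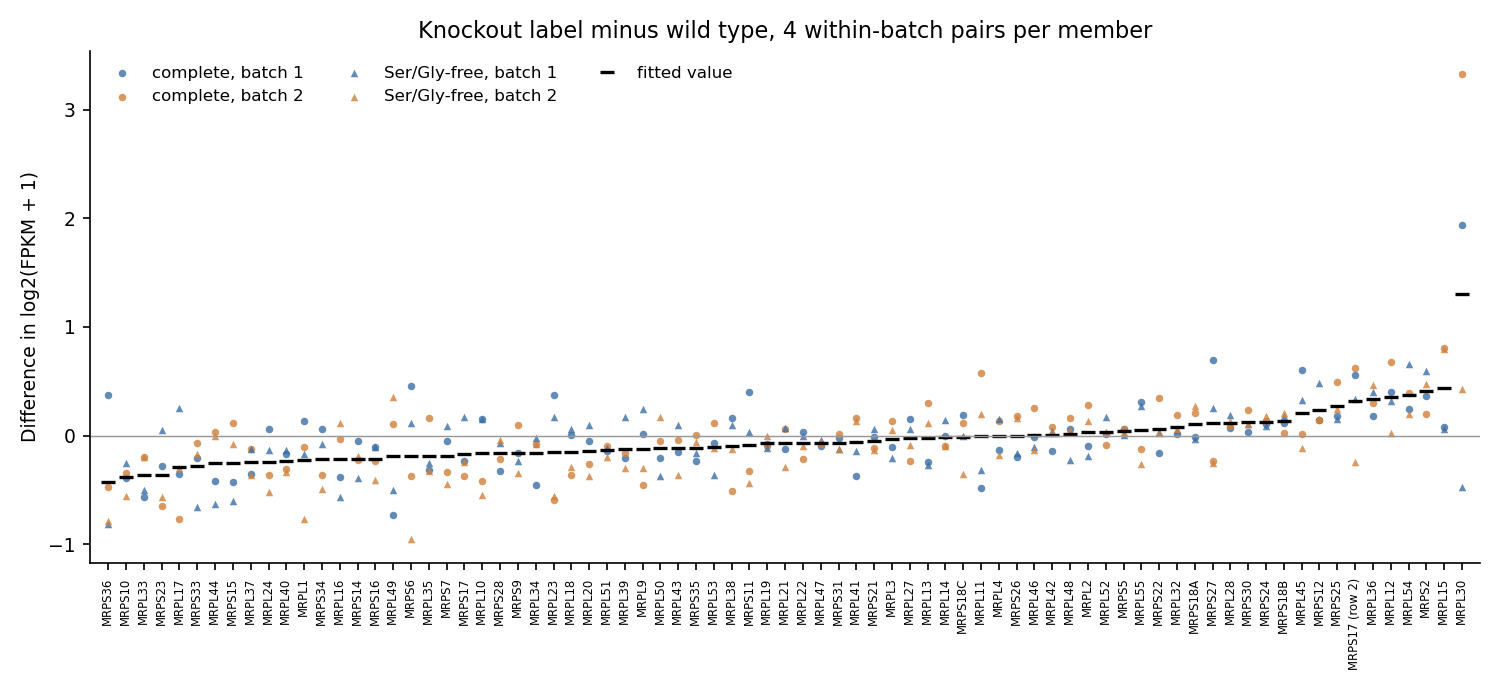
Difference in log2(FPKM + 1) between libraries labelled ATF3(-/-) and wild type for each of the 77 members, ordered by the fitted value (bar), with 1 point for each of the 4 within-batch pairs. Of the members, 13 lie above 0 in all 4 pairs and 12 lie below 0 in all 4, and MRPL30 stands apart in complete medium.

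MRPS2, a core protein of the small subunit, stood at 31.9 FPKM in wild type and 41.4 with the label in complete medium of batch 1, and at 30.9 and 47.2 without serine and glycine. In batch 2 it stood at 17.6 and 20.4, then 17 and 24.1. Both labelled values lay above both wild-type values in each batch. The difference was 0.41 ± 0.11, the smallest adjusted p of any member for the label (limma adjusted p = 0.385), and in serine/glycine-free medium it was 0.54 ± 0.15 (limma adjusted p = 0.801).

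MRPL54, a large-subunit protein found only in mitochondria, stood at 28.3 and 33.8 FPKM (wild type, then label) in complete medium and 29 and 46.4 without serine and glycine in batch 1, and at 17.2 and 22.8, then 23.0 and 26.5, in batch 2. The labelled value was higher in 4 of 4 pairs, with overlap in batch 2. The difference was 0.37 ± 0.12 (limma adjusted p = 0.423). MRPL36, a bacterial-type protein of the large subunit, had 0.33 ± 0.13 (limma adjusted p = 0.443). MRPL12, a stalk protein that is also known to bind the mitochondrial RNA polymerase, had 0.36 ± 0.15 (limma adjusted p = 0.463), and 0.23 without the labelled serine/glycine-free library of batch 1 or the labelled complete library of batch 2. In complete medium alone MRPL12 had 0.54 ± 0.22 (limma adjusted p = 0.857), and 0.29 without that library of batch 2. MRPL15 had 0.44 ± 0.18 (limma adjusted p = 0.458), which came almost wholly from batch 2, where it was 0.80 against 0.07 in batch 1.

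On the lower side, MRPL33, a bacterial-type protein of the large subunit, stood at 175 and 118 FPKM (wild type, then label) in complete medium and 160 and 112 without serine and glycine in batch 1, and at 122 and 107, then 142 and 124, in batch 2. The groups did not overlap in batch 1 and touched in batch 2, where the labelled serine/glycine-free value exceeded the wild-type complete one. The difference was -0.36 ± 0.13, with -0.54 in batch 1 and -0.19 in batch 2 (limma adjusted p = 0.433). MRPS10, among the highest members for the medium, had -0.39 ± 0.13 for the label and was lower in 4 of 4 pairs (limma adjusted p = 0.423). MRPS33, MRPL37 and MRPL40, all found only in mitochondria, had -0.28 ± 0.12, -0.24 ± 0.11 and -0.24 ± 0.11, with limma adjusted p from 0.465 to 0.466. MRPS33 had -0.44 in batch 1 and -0.12 in batch 2, and -0.18 without the labelled serine/glycine-free library of batch 1, and MRPL40 -0.15 and -0.33.

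Within complete medium the median difference for the label was -0.04 (all genes tested -0.02, those at a median of 10 FPKM or more -0.07), and within serine/glycine-free medium -0.06 (all genes tested -0.04, abundant genes -0.08). In serine/glycine-free medium it was 0.01 in batch 1 and -0.11 in batch 2, and it ran from -0.142 to 0.01 with each library left out in turn. Median-ratio scaling moved members and all genes alike, to 0.04 for both in complete medium and to 0.01 and 0.02 in serine/glycine-free medium. By limma 0 members passed in either medium (0.0333% and 0.05% of all genes tested did). At an unadjusted p under 0.05 there were 3 in complete medium, against 4.78%, namely MRPL30, MRPL17 and MRPL12, and 2 in serine/glycine-free medium, against 5.86%, namely MRPS2 and MRPS36. In complete medium 18 members were higher and 23 lower in both batches, against 20.4% and 25.7% of all genes tested. In serine/glycine-free medium 16 were higher and 26 lower, against 20.2% and 27.8%.

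The neighbours of the members in mitochondrial translation are given from lists. Over both labels the 27 genes for assembly of the mitochondrial ribosome and modification of its rRNA had a median medium difference of 0.14, with 22 higher and 0 passing. Of all 17994 genes tested 9445 were higher and 8549 lower. GTPBP10, a GTPase of large-subunit assembly, had 0.68 ± 0.15 (limma adjusted p = 0.284) and MTG1, another such GTPase, 0.52 ± 0.20 (adjusted p = 0.464). The 10 genes of mitochondrial DNA transcription and replication had a median of 0.11, led by TFB2M, a transcription initiation factor, at 0.67 ± 0.14 (limma adjusted p = 0.266), with the DNA-packaging factor TFAM at 0.37 ± 0.12 (adjusted p = 0.395). The 17 translation factors had 0.07, with the elongation factor GFM1 at 0.37 ± 0.13 (limma adjusted p = 0.429), and the 17 mitochondrial aminoacyl-tRNA synthetases had 0.02. The 7 mitochondrial ribosomal proteins with other symbols had 0.01. Of these DAP3, a GTP-binding protein of the small subunit, had 0.34 ± 0.11 (limma adjusted p = 0.380), while CHCHD1, a small-subunit protein, had -0.27 ± 0.12 for the medium and -0.51 ± 0.12 for the label (adjusted p = 0.534 and 0.385).

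Transcripts of mitochondrial DNA stood on the other side. The 13 mitochondrially encoded protein genes had a median medium difference of -0.32, with 12 lower, and a median of 0.40 for the label, with 12 higher, and 0 passed in either. Of all 17994 genes tested 8549 were lower without serine and glycine and 8248 higher with the label. MT-ND4L, a subunit of complex I, stood at 450 and 326 FPKM in wild type of batch 1, 658 and 354 with the label, 367 and 203 in wild type of batch 2 and 342 and 274 with the label. It was lower without serine and glycine in 4 of 4 pairs, by -0.63 ± 0.14 (limma adjusted p = 0.284). MT-RNR1, the rRNA of the small mitochondrial subunit, had -0.46 ± 0.19 for the medium (limma adjusted p = 0.504) and 0.44 ± 0.19 for the label (adjusted p = 0.465). MT-RNR2, the rRNA of the large subunit, was listed at 0 in every library.

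For scale, the 20 measured genes of the ATF4 amino acid response had a median medium difference of 1.49, with 20 higher and 4 passing. SLC7A11, a cystine transporter subunit, rose by 2.19 ± 0.15 (limma adjusted p = 0.0175). The 78 cytosolic ribosomal proteins had a median of 0.11, with 71 higher and 0 passing. The 78 nuclear respiratory chain genes had -0.05, with 51 lower and 0 passing. The members' median of 0.07 lay between those of these last lists, whose medians were all small beside that of the ATF4 list.

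**Figure D5:**
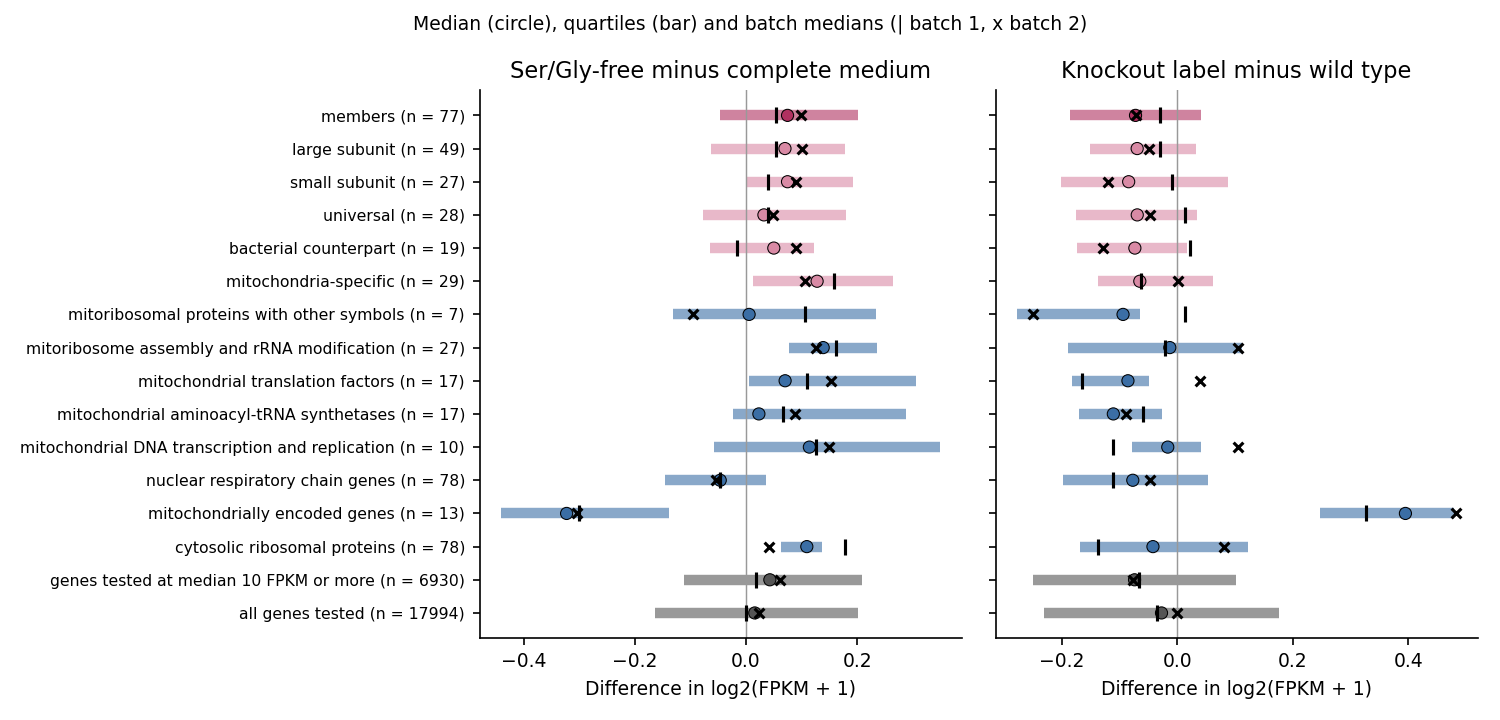
Median difference in log2(FPKM + 1) for the members, their subunits and classes, related gene lists and all genes tested, between media (left) and between genotype labels (right); circles are medians of fitted values, bars quartiles, and ticks and crosses the medians of batch 1 and batch 2. Members lie near 0 in both panels (0.07 and -0.07), while mitochondrially encoded genes lie at -0.32 and 0.40.

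Among head-to-head neighbours, 15 partners of members were tested, and 6 of these pairs had the same sign of the medium difference. No such share was computed for head-to-head pairs of other genes, so the 6 of 15 cannot be read as high or low. Signs of values near 0 are counted too. MRPS12 with SARS2 is among the 6, and MRPL30 with MITD1, at 0.0020, is not. MRPS12 stood at 46.2 and 41.3 FPKM in wild type of batch 1, 51.3 and 58.1 with the label, 44.3 and 44.1 in wild type of batch 2 and 49.1 and 49.2 with the label, with a fitted difference of 0.0046 ± 0.11. SARS2, across the 180 bases shown above, stood at 9.35 and 14.9 FPKM, 14.1 and 15.0, 3.90 and 7.91, and 5.50 and 8.42 in the same order. SARS2 was higher in 4 of 4 pairs, by 0.53 ± 0.15 (limma adjusted p = 0.354), and MRPS12 in 2 of 4. MRPS11 and MRPL46, both members, start 320 bases apart and had -0.13 ± 0.16 and 0.27 ± 0.12.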

How the data were processed

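RNA of 8 cultures was sequenced. The values are FPKM as deposited by the authors, with a separate table for each batch that lists 57884 Ensembl genes. The submitters' processing notes name TopHat, Cufflinks, Cuffdiff and hg19, with versions not given in the sources used here. These values depend on length and library size, and a value of exactly 0 can be a failed estimate. Loci are those listed in the tables (hg19, written 1-based). Groups and batches came from the labels, which state that a number marks cells treated together, so the batch pairs the libraries. Deviations of same-batch libraries from their group means correlated at 0.65 to 0.77 over genes. With 2 libraries per group, any difference between the tables gives such values.

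Genes at 1 FPKM or more in at least 2 libraries were tested (17994). On log2(FPKM + 1), a model of 4 group means was fitted with limma 3.58.1 (R 4.3.3), with the batch as a block and a trended empirical Bayes prior, on 3 residual and 2.97 prior degrees of freedom. Two-sided p-values were adjusted over all of these genes (Benjamini-Hochberg). Columns were not rescaled. The steps were tested on simulated data with 17994 genes: in the comparison between media 45.0% of genes changed by a log2 of 1 and 85.0% of those changed by 2 were called, and in the wild-type response 15.0% and 67.0%.

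The members and gene lists were chosen with earlier results of these data known. Named genes are ATF3, any member called, the 5 highest and 5 lowest members for medium and for genotype label among those on the same side of the member median in all 4 pairs, the 3 smallest p of other comparisons with the same sign in both batches, the 3 extremes of level and of spread, and the 2 smallest p per list. Not all of those from the lists are reported here. Promoters are from RefSeq (GRCh38.p14), matched by symbol.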

Additional observations from a re-analysis of the deposited data

Results flagged for a closer look

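In 6 members the sign of the medium response in both batches of wild type was opposite to that in both batches of the label. The difference between the responses, labelled minus wild type on the log2(FPKM + 1) scale, was 0.536 for MRPL17, -2.66 for MRPL30, 0.174 for MRPS12, -0.186 for MRPS15, 0.252 for MRPS2 and 0.219 for MRPS28. By limma the adjusted p of this difference was 1 for each of the 6, and the unadjusted p was under 0.05 for MRPL30 only. The share of members with this pattern, 7.79%, stood beside 6.31% of all genes tested. For MRPS12, MRPS15 and MRPS28 the responses lay between -0.16 and 0.18 in both batches. Some were near 0 in batch 2. MRPS28 had -3.2e-05 in wild type, and MRPS12 had -0.0063 in wild type and 0.0050 with the label. Such signs carry little weight in the count of 6.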

How the results depend on the processing

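Alternatives varied the pseudocount, the filter, the scaling, the block, the prior, the libraries and the members counted. With 0 members called throughout, no alternative called a member, and the smallest adjusted p of any member was 0.129 (MRPL15, medium, with a replicate block per genotype label and batch). The named members kept their direction in all 774 values computed. They had been named for the same side of the member median in all pairs or the same sign in both batches. These values thus had little room to reverse, and the count gives no support. Each group has 1 library per batch, so leaving out the replicate block could not move a median. Without that block 0 members were called, and members at an unadjusted p under 0.05 for the medium went from 10 to 1. Median-ratio scaling gave member medians of 0.046 in wild type, -0.0121 with the label, 0.0195 for the medium, and 0.0395 and 0.00423 for the label in complete medium and over both media. Upper-quartile scaling gave 0.0475, 0.0031, 0.0279, 0.0151 and -0.0126. A median is given here where it moved by more than the SD of the 2 batch medians. With the label the medium median was 0.0565 with no filter, 0.0703 with the filter in all libraries, 0.0736 for abundant genes, 0.0508 with the antisense RNA, 0.109 without shared loci, and 0.0634 and 0.0609 in batch 1 and batch 2. For the label in complete medium it was -0.0504 with the filter in all libraries, -0.0505 for abundant genes, -0.0746 without shared loci, and -0.019 and -0.0278 in the batches. Without shared loci the medium median was 0.121. The genotype median was -0.029 in batch 1, and the median difference of the responses was -0.0971 in batch 2. Without both batch 2 libraries labelled ATF3(-/-) the medians were 0.0634 for the labelled response, -0.0125 for the label in complete medium and -0.029 over both media. With each library left out in turn the median ran from 0.074 to 0.131 in wild type, 0.0427 to 0.0889 with the label, 0.0645 to 0.105 for the medium, -0.0797 to -0.0122 for the label in complete medium, -0.142 to 0.01 in serine/glycine-free medium, -0.106 to -0.0517 over both media and -0.0565 to 0.0169 for the difference of the responses. Members at an unadjusted p under 0.05 for the medium numbered 1 to 18 over these settings. Absolute depth is unknown, so counting error could not be given.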
